A study of Mus musculus with 12 samples.

Results

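The interferon response and antigen presentation genes described here are a set of 42 mouse gene symbols listed by name for their known roles. The list was chosen with earlier results of these data known, so its shares set against all genes are descriptions. Of the 42, 38 were measured by a probe set that carries a single gene symbol, out of 19938 genes measured in the same way. Isg15, Gbp2 and Igtp are matched only by probe sets that carry several genes, and Ifi44 by no listed probe set, so these 4 were not analysed here. No filter on low values was applied, and all 38 measured genes entered every test.

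The arrays come from a study of the route by which astrocytes, a glial cell type of the brain, are reprogrammed into induced pluripotent stem cells (iPSCs). The astrocyte iPSCs (2 arrays) were derived from Sox1-GFP reporter astrocytes and were grown on mitomycin C treated mouse embryonic fibroblast (MEF) feeders with 1500 U/ml LIF and 15% serum or serum replacement. The MEF iPSCs (2 arrays) are a single line, iPS-MEF-Ng-20D-17, made from fibroblasts of a Nanog reporter and grown in the same medium. The day 6 cells (3 arrays) were Sox1-GFP positive cells sorted 6 days after the astrocytes received retroviral Oct4, Klf4, Sox2 and c-Myc, in 15% serum with 1000 U/ml LIF. The neural stem cells (2 arrays) came from the telencephalon of Sox1-GFP embryos at day 12.5 to 14.5 and grew without serum in bFGF and EGF at 20 ng/ml each. The astrocytes (3 arrays) came from the cortex of Sox1-GFP pups at postnatal day 3, were sorted as GFP negative and grew in 10% fetal bovine serum. Except for the MEF line, all groups carry GFP in place of 1 Sox1 allele. No infected but GFP negative cells and no uninfected astrocytes in iPSC medium are among the samples, so infection, sorting, medium and cell state cannot be told apart.

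Type I interferons bind a receptor made of Ifnar1 and Ifnar2, and the signal reaches the nucleus through a complex that contains Stat2 and Irf9. This complex binds the interferon-stimulated response element in the promoters of its target genes, and interferon regulatory factors bind closely related sequences. The targets include RNA sensors, proteins that block viral replication, the ISG15 conjugation system and the machinery that cuts and loads peptides onto class I molecules of the major histocompatibility complex. Interferon gamma acts through its own receptor and induces an overlapping set, with the immunity-related GTPases and the immunoproteasome among them. Astrocytes in culture can respond to interferons, and pluripotent cells are known for a weak response to them.

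Promoter windows from RefSeq (build GRCm38.p6), each 250 bases before to 50 after a gene's start, were listed for 31 of the 38 genes. The core of the interferon-stimulated response element, searched as GAAA followed after any 2 bases by a second GAAA, was found on either strand in 10 of the 31 genes, 32.3%, against 3.99% of the 27025 genes in the table (1079 genes). The 10 genes are B2m, Bst2, Eif2ak2, Gbp3, Ifih1, Ifit1, Ifit3, Irgm1, Rsad2 and Stat2. The shorter GAAANNGAA, which every longer match also contains, was found in 13 of the 31 genes (41.9%, against 9.76%). The gamma-activated site TTCNNNGAA was found in 9 of them (29%, against 9.55%). A match is a description of the letters, and no binding was measured. Windows for Usp18, Dhx58, Parp14, Tap2, Parp9, Rtp4 and Zbp1 were not analysed here. The window of Psmb9 and that of Tap1, on opposite strands of chromosome 17, share 275 bases.

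The 6 promoters below belong to genes whose levels are followed through the report: 2 effectors, a sensor, a GTPase, a restriction factor and the class I light chain. Capitals mark this core or its reverse complement (TTTC, any 2 bases, TTTC), and each sequence reads 5′ to 3′ on the gene's own strand. In Bst2 and in Irgm1 the 2 matches overlap. Ifit1 lies at chr19:34640639-34640938 (plus strand), Ifit3 at chr19:34583279-34583578 (plus strand), Ifih1 at chr2:62646206-62646505 (minus strand), Irgm1 at chr11:48871371-48871670 (minus strand), Bst2 at chr8:71537423-71537722 (minus strand) and B2m at chr2:122147437-122147736 (plus strand), all GRCm38.p6.
Ifit1: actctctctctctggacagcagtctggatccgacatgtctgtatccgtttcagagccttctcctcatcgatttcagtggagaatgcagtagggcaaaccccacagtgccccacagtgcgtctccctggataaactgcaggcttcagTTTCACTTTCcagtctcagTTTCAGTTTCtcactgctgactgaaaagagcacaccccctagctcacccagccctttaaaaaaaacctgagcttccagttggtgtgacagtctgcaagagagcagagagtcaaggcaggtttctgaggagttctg
Ifit3: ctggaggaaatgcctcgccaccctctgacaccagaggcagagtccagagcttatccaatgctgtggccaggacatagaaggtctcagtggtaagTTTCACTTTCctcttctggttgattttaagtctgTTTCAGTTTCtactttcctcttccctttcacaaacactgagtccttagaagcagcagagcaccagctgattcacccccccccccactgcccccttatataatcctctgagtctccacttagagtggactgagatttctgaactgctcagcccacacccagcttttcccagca
Ifih1: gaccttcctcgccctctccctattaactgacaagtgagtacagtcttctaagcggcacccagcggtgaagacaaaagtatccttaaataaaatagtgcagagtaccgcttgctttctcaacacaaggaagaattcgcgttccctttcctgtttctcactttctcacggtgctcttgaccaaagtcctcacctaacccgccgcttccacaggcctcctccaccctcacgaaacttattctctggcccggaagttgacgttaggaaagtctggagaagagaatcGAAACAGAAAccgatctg
Irgm1: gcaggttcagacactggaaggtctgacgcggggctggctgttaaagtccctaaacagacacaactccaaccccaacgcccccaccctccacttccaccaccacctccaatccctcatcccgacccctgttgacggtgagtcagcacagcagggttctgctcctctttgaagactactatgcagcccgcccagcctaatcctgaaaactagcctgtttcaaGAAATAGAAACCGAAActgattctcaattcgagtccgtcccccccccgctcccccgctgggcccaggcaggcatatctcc
Bst2: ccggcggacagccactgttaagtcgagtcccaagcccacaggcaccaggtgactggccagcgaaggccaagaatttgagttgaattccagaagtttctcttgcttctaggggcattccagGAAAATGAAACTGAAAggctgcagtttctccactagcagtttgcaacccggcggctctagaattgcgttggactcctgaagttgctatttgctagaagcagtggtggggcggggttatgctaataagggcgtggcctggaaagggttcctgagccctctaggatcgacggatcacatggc
B2m: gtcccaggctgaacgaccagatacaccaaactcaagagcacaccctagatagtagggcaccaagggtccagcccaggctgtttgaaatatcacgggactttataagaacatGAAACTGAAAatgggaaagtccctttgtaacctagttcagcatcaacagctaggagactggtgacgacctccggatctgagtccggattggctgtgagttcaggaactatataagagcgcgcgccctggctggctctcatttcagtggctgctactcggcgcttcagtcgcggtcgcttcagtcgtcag

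Levels below are log2 of the deposited probe set intensity on each array, a relative scale on which levels of different genes are not compared. The median over all genes lay between 6.81 and 6.94 on every array. A gene was called different between groups at a limma adjusted p under 0.05 together with a log2 difference of at least 1, and every difference is the first named group minus the second. Replicates of a group agreed closely over all genes (r 0.992 to 0.996). The summed intensity of 12 astrocyte markers was 2082 to 2186 in astrocyte iPSCs, 2607 to 2609 in MEF iPSCs, 2971 to 3006 in day 6 cells, 15904 to 16102 in neural stem cells and 43775 to 47157 in astrocytes. For 10 pluripotency markers the sums were 19591 to 22423 in astrocyte iPSCs, 21258 to 22219 in MEF iPSCs, 1703 to 1791 in day 6 cells, 793 to 816 in neural stem cells and 1162 to 1292 in astrocytes. The 9 measured neural stem cell markers summed to 2924 to 3024 in astrocyte iPSCs, 2963 to 3053 in MEF iPSCs and 2096 to 2147 in day 6 cells. Their sums were 9981 to 10660 in neural stem cells and 7833 to 9793 in astrocytes, so a high sum was not particular to neural stem cells. Of the 9, 5 were called lower in day 6 cells than in neural stem cells (Nes, Sox2, Olig2, Nr2e1 and Msi1) and 0 higher. Mean levels of Pax6 were 8.51 in day 6 cells and 7.96 in neural stem cells, and those of Prom1 8.14 and 8.17. The day 6 cells were sorted on Sox1-GFP, but Sox1 itself was nearly level in all groups, at 7.98 to 8.01 in both iPSC groups, 8.27 to 8.53 in day 6 cells, 8.20 to 8.32 in neural stem cells and 7.97 to 8.25 in astrocytes.

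Across the 38 genes, astrocytes stood apart from every other group. In 28 genes (73.7%), each of the 3 astrocyte arrays was above all 9 other arrays, a pattern shown by 16.6% of all genes. Astrocytes had the highest group mean in 30 of the 38 genes, against 25.7% of all genes. Day 6 cells had it in Irf3, Parp12 and Dtx3l (24.3% of all genes) and neural stem cells in Ifnar1 (16.1%). Astrocyte iPSCs had it in Irf1, Bst2, Trim25 and Zbp1 (17.2%), and MEF iPSCs in 0 (16.7%). The median level of the 38 genes was 7.19 and 7.22 on the astrocyte iPSC arrays, 7.14 and 7.26 on the MEF iPSC arrays, 6.71 to 6.88 on the day 6 arrays, 6.34 and 6.98 on the neural stem cell arrays and 8.11 to 8.43 on the astrocyte arrays. In day 6 cells, 18 of the 38 genes lay below the array median on every array, as did 16 in neural stem cells and 15 in each iPSC group. In astrocytes only Dhx58 and Zbp1 did. An array median splits all genes evenly by construction, so the low count in astrocytes is what stands out.

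**Figure D1:**
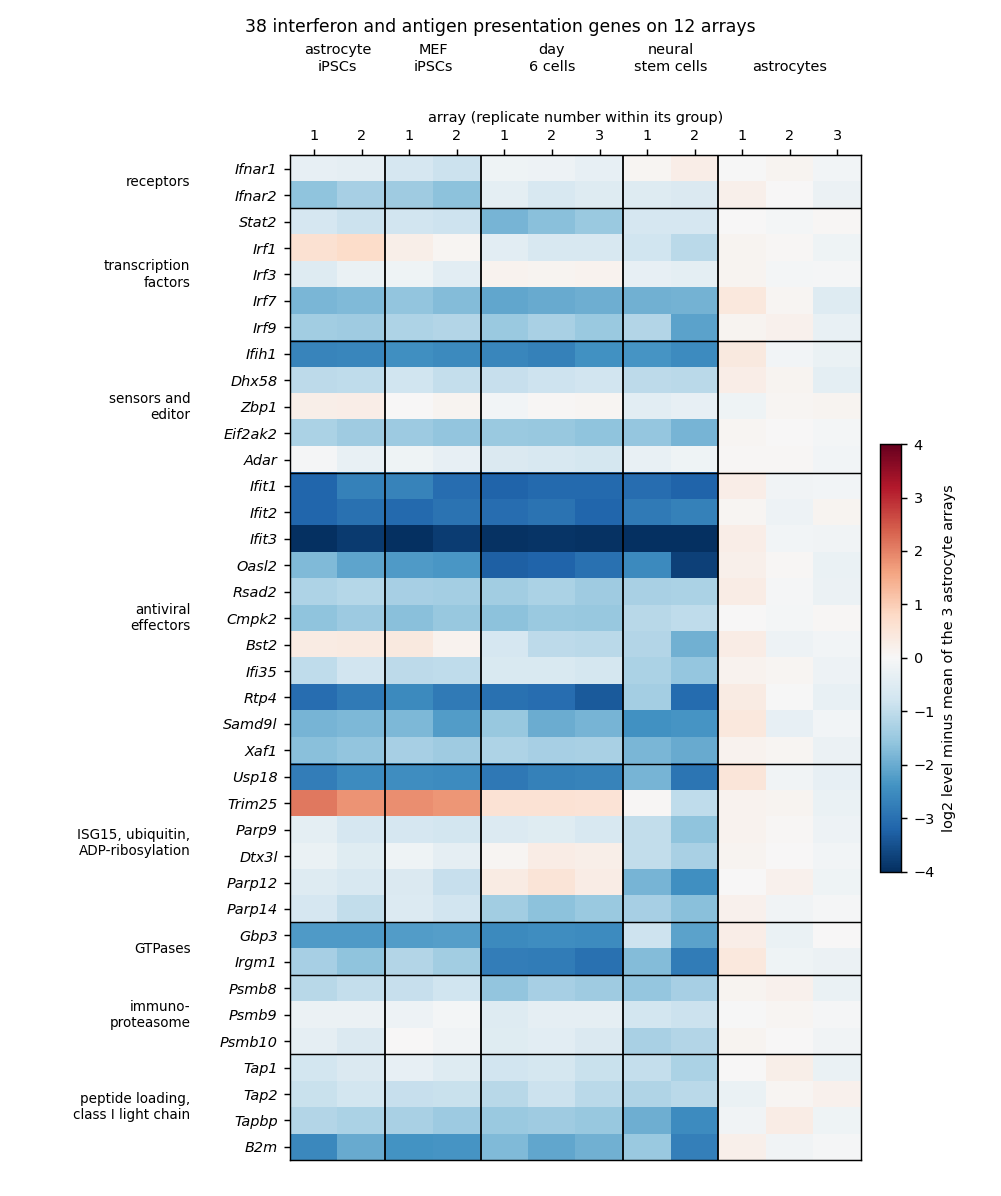
Level of each of the 38 genes (rows, grouped by role) on each of the 12 arrays (columns, grouped by cell population), as the log2 level minus the mean of the 3 astrocyte arrays; blue is lower and red higher than that mean. Most rows are blue in the 9 columns outside astrocytes, Trim25 is red in both iPSC groups, and the 2 neural stem cell columns differ in rows such as Rtp4 and Gbp3.

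Day 6 cells were compared with astrocytes, the cells they were made from. In day 6 cells, 22 of the 38 genes were called lower, where 10.1% of all genes were, and 0 were called higher, where 6.75% of all genes were. The median difference of the 38 genes was -1.39, against 0.04 over all genes, and in 33 genes the day 6 and astrocyte arrays did not overlap, with day 6 lower, as in 27.3% of all genes. The largest adjusted p among the 22 called genes was 8.15e-05 by limma. RNA was taken from whole populations, so fewer cells expressing a gene and less RNA per cell cannot be told apart in these or any later differences.

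Neural stem cells and astrocyte iPSCs were compared with the same 3 astrocyte arrays, so the 3 comparisons with astrocytes share samples and their values are given side by side rather than as independent results. In neural stem cells, 29 of the 38 genes were called lower (8.1% of all genes) and 0 higher (6.49%), with a median difference of -1.46 against -0.03 over all genes. In astrocyte iPSCs, 21 were called lower (11.4% of all genes) and 1, Trim25, was called higher (9.44%), with a median of -1.11 against 0.01 over all genes. The largest adjusted p among called genes was 0.00101 for neural stem cells and 0.000606 for astrocyte iPSCs by limma.

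**Figure D2:**
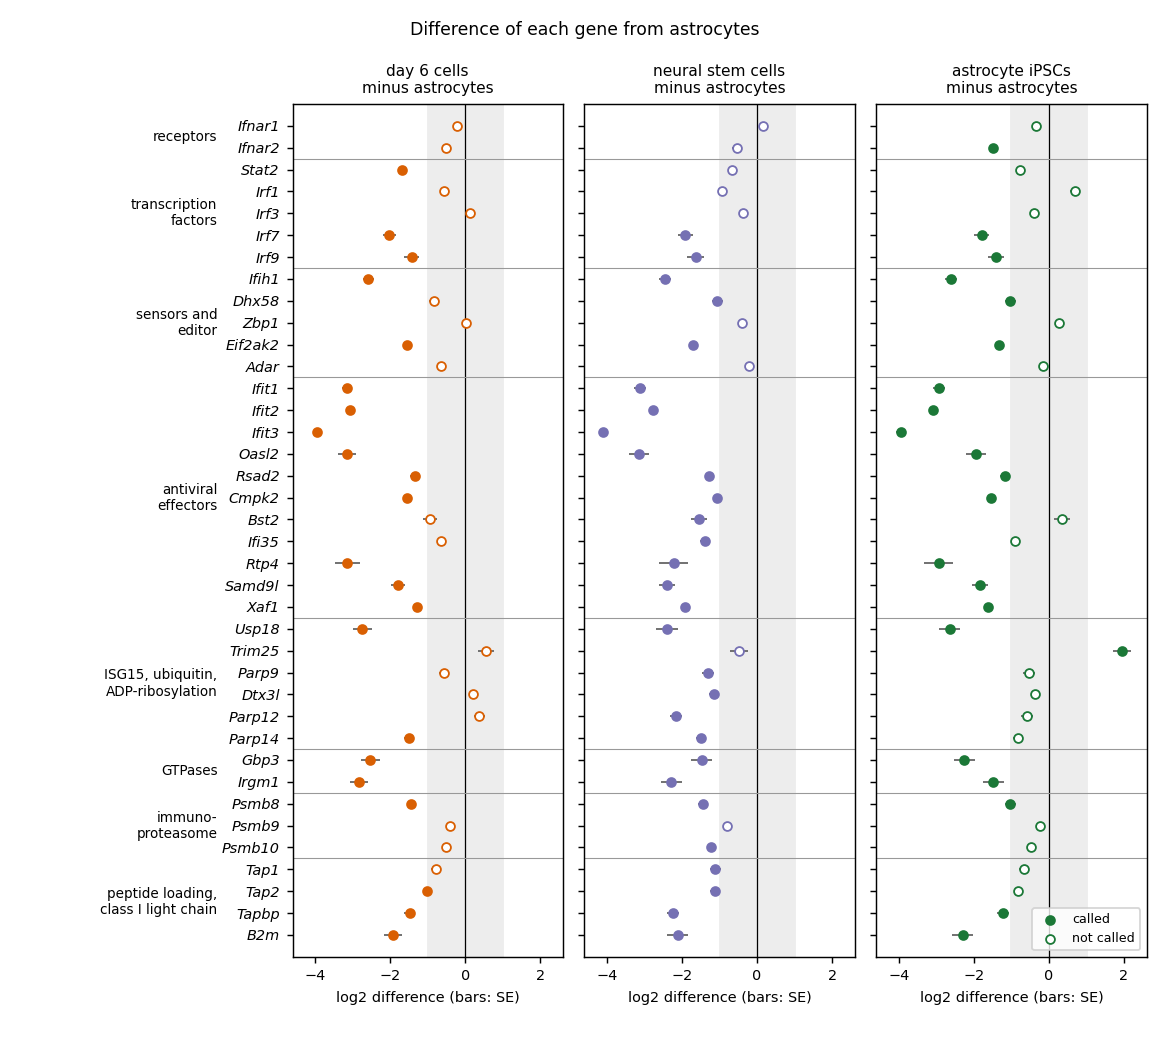
Log2 difference of each gene from astrocytes (horizontal axis) in day 6 cells, neural stem cells and astrocyte iPSCs, by role; bars are limma standard errors, filled points are called and the grey band marks differences under 1. Ifit3 lies furthest left in all 3 panels, at -3.94, -4.10 and -3.95, while the receptors and Adar lie within the grey band except for Ifnar2 in astrocyte iPSCs.

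The receptor chains differed little outside the iPSCs. Ifnar1, the signalling chain that holds the kinase Tyk2, had levels of 8.67 and 8.64 in astrocyte iPSCs, 8.32 and 8.15 in MEF iPSCs, 8.84, 8.80 and 8.67 in day 6 cells, 9.07 and 9.25 in neural stem cells and 8.99, 9.12 and 8.88 in astrocytes. It was not called in any comparison, with differences of -0.23 in day 6 cells, 0.16 in neural stem cells and -0.35 in astrocyte iPSCs, each against astrocytes. Ifnar2, the chain with the higher affinity for interferon, had levels of 7.19 and 7.47 in astrocyte iPSCs, 7.38 and 7.18 in MEF iPSCs, 8.41, 8.18 and 8.30 in day 6 cells, 8.29 and 8.25 in neural stem cells and 9.02, 8.84 and 8.58 in astrocytes. Ifnar2 was lower on all 4 iPSC arrays than on the other 8. It fell in astrocyte iPSCs against astrocytes, with a difference of -1.48 (SE 0.13, adjusted p = 1.46e-06), while the difference of -0.51 in day 6 cells against astrocytes stayed under the size limit.

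Of the 5 transcription factors, Stat2, Irf7 and Irf9 fell in day 6 cells, Irf7 and Irf9 in neural stem cells and in astrocyte iPSCs. Irf7, the regulator that amplifies type I interferon production, had levels of 6.31 and 6.36 in astrocyte iPSCs, 6.56 and 6.40 in MEF iPSCs, 6.06, 6.10 and 6.16 in day 6 cells, 6.19 and 6.24 in neural stem cells and 8.56, 8.22 and 7.60 in astrocytes. Its 9 arrays outside astrocytes spanned 6.06 to 6.56, all below the array medians, and no overlap with astrocytes was seen. The differences were -2.02 (SE 0.18, adjusted p = 1.68e-06) in day 6 cells, -1.91 (SE 0.20, adjusted p = 9.59e-06) in neural stem cells and -1.79 (SE 0.20, adjusted p = 1.12e-05) in astrocyte iPSCs. Irf9, which brings the Stat complex to DNA, differed from astrocytes by -1.42 in day 6 cells, -1.64 in neural stem cells and -1.41 in astrocyte iPSCs.

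Stat2 gave a different order. Its levels were 7.72 and 7.54 in astrocyte iPSCs, 7.65 and 7.56 in MEF iPSCs, 6.54, 6.73 and 6.93 in day 6 cells, 7.73 and 7.73 in neural stem cells and 8.42, 8.34 and 8.45 in astrocytes. The 3 day 6 arrays were the lowest, and the iPSC and neural stem cell arrays lay together between them and the astrocytes. Against astrocytes the difference in day 6 cells was -1.67 (SE 0.09, adjusted p = 3.08e-08), and that in neural stem cells, -0.67, and that in astrocyte iPSCs, -0.78, stayed under the size limit. Irf3, the constitutive factor activated by RNA and DNA sensing, was called in no comparison and differed from astrocytes by 0.12 in day 6 cells and -0.39 in astrocyte iPSCs.

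Among the sensors and editors, Ifih1, which encodes the RNA helicase sensor MDA5, stood at 5.60 and 5.64 in astrocyte iPSCs, 5.79 and 5.68 in MEF iPSCs, 5.62, 5.54 and 5.81 in day 6 cells, 5.88 and 5.72 in neural stem cells and 8.62, 8.13 and 7.97 in astrocytes. The 9 arrays outside astrocytes lay within 5.54 to 5.88. Ifih1 was 5.99-fold lower in day 6 cells, 5.41-fold lower in neural stem cells and 6.13-fold lower in astrocyte iPSCs than in astrocytes, with log2 differences of -2.58, -2.44 and -2.62 (SE 0.14 to 0.16). Eif2ak2, the RNA-activated kinase PKR that halts translation, fell as well, by 1.54 in day 6 cells, by 1.70 in neural stem cells and by 1.34 in astrocyte iPSCs on the log2 scale. Dhx58, a helicase that regulates RNA sensing, had a difference of -0.83 in day 6 cells and was called lower in neural stem cells (-1.06) and astrocyte iPSCs (-1.03), close to the size limit. Adar, which edits adenosine in double-stranded RNA, and Zbp1, a sensor of nucleic acids in an unusual helical form, were called in no comparison. Against astrocytes, Adar differed by -0.65 in day 6 cells (SE 0.08, adjusted p = 3.96e-05 by limma), without overlap of the arrays. It differed by -0.22 in neural stem cells and -0.17 in astrocyte iPSCs. Zbp1 differed by 0.01, -0.39 and 0.26 in the same order.

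The antiviral effectors held the largest differences. Of the 11 measured, 9 fell in day 6 cells, 11 in neural stem cells and 9 in astrocyte iPSCs, each against astrocytes. Ifit3, which with Ifit1 and Ifit2 binds viral RNA and blocks its translation, had levels of 5.24 and 5.49 in astrocyte iPSCs, 5.35 and 5.53 in MEF iPSCs, 5.36, 5.41 and 5.38 in day 6 cells, 5.22 and 5.22 in neural stem cells and 9.57, 9.21 and 9.18 in astrocytes. Ifit3 was thus low and nearly level on all 9 arrays outside astrocytes. It was 15.3-fold lower in day 6 cells (-3.94, SE 0.11, adjusted p = 1.25e-10), 17.1-fold lower in neural stem cells (-4.10, SE 0.12, adjusted p = 5.13e-10) and 15.5-fold lower in astrocyte iPSCs (-3.95, SE 0.12, adjusted p = 3.1e-10) than in astrocytes. Ifit1 and Ifit2, on chromosome 19 with Ifit3, followed it, with differences from astrocytes of -3.15 and -3.06 in day 6 cells, -3.12 and -2.77 in neural stem cells and -2.93 and -3.08 in astrocyte iPSCs. The promoters of Ifit1 and Ifit3, printed above, each carry 2 separate matches to the response element, and the listed windows of Ifit2 carry 0. The part of the matches in these levels was not tested.

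Oasl2, which encodes a protein of the oligoadenylate synthetase family, stood at 7.95 and 7.60 in astrocyte iPSCs, 7.45 and 7.38 in MEF iPSCs, 6.45, 6.50 and 6.74 in day 6 cells, 7.16 and 5.99 in neural stem cells and 9.92, 9.76 and 9.46 in astrocytes. The iPSC arrays lay above those of day 6 cells without overlap, and the 2 neural stem cell arrays stood on either side of the day 6 range. Oasl2 was 8.85-fold lower in day 6 cells, 8.79-fold lower in neural stem cells and 3.83-fold lower in astrocyte iPSCs than in astrocytes. Rtp4, an interferon-induced gene whose product is a receptor transporter, differed by -3.14 (SE 0.34), -2.22 (SE 0.38) and -2.94 (SE 0.38) in the same 3 comparisons. Rsad2, which encodes the antiviral enzyme viperin, Cmpk2, a mitochondrial nucleotide kinase, Samd9l, a restriction factor, and Xaf1, a pro-apoptotic factor, fell as well. These 4 were called lower in each comparison with astrocytes, with differences from -1.28 for Xaf1 to -1.79 for Samd9l in day 6 cells, and Samd9l reached -2.40 in neural stem cells.

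Bst2 was the one effector with a positive difference in astrocyte iPSCs. It encodes tetherin, which holds enveloped virus particles on the cell surface. Its levels were 9.36 and 9.41 in astrocyte iPSCs, 9.42 and 9.18 in MEF iPSCs, 8.35, 8.0 and 7.97 in day 6 cells, 7.86 and 7.11 in neural stem cells and 9.34, 8.84 and 8.93 in astrocytes. Of the 4 iPSC arrays, 3 were above the highest astrocyte array, and the neural stem cell arrays were the lowest. Against astrocytes the difference was -0.93 (SE 0.19) in day 6 cells, which was not called, -1.55 (SE 0.21, adjusted p = 7e-05) in neural stem cells and 0.34 (SE 0.21) in astrocyte iPSCs, which was not called. The difference in day 6 cells passed the size limit and was called after cyclic loess (-1.02), without astrocyte replicate 2 (-1.03) and without day 6 replicate 1 (-1.05). Ifi35, an interferon-induced leucine zipper protein, was called lower in neural stem cells at -1.40, and its differences of -0.64 in day 6 cells and -0.90 in astrocyte iPSCs stayed under the size limit.

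**Figure D3:**
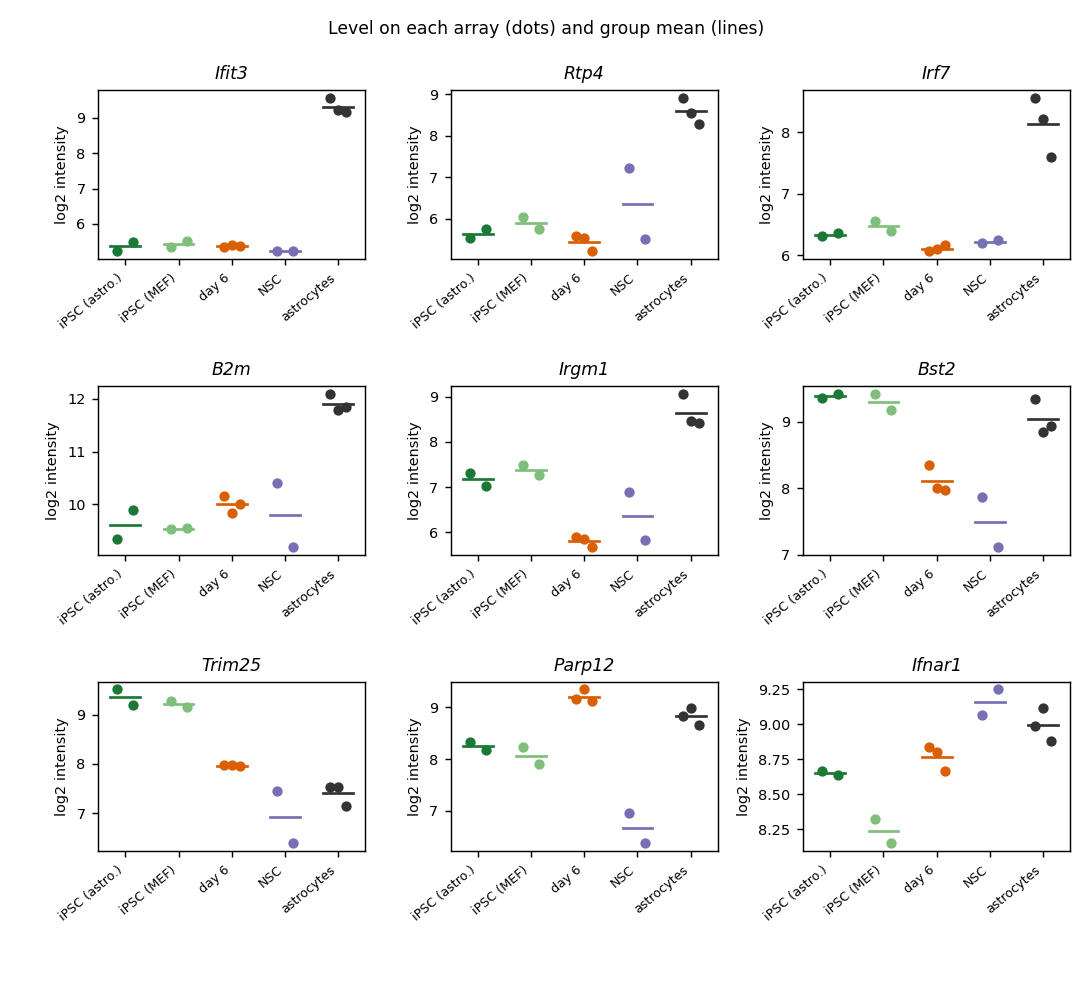
Log2 level of 9 genes on each array (dots) with the group mean (lines), for astrocyte iPSCs, MEF iPSCs, day 6 cells, neural stem cells and astrocytes. Ifit3, Rtp4, Irf7, B2m and Irgm1 are highest in astrocytes, Bst2 and Trim25 are high in both iPSC groups, Parp12 is lowest in neural stem cells, and Ifnar1 differs little.

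The genes of ISG15 conjugation, ubiquitin ligation and ADP-ribosylation split. Usp18, which removes ISG15 from proteins and also damps receptor signalling, fell in all 3 groups, with differences of -2.74 in day 6 cells, -2.40 in neural stem cells and -2.64 in astrocyte iPSCs against astrocytes (SE 0.25 to 0.28). Parp14, an ADP-ribosyltransferase, fell in day 6 cells (-1.49) and neural stem cells (-1.5), and the difference in astrocyte iPSCs was -0.83. Parp9 and Dtx3l, which encode an ADP-ribosyltransferase and its partner ubiquitin ligase, were called lower in neural stem cells only, at -1.30 and -1.15, with -0.56 and 0.21 in day 6 cells. Parp12, a zinc finger ADP-ribosyltransferase, had levels of 8.32 and 8.17 in astrocyte iPSCs, 8.23 and 7.90 in MEF iPSCs, 9.15, 9.34 and 9.12 in day 6 cells, 6.96 and 6.38 in neural stem cells and 8.83, 8.98 and 8.66 in astrocytes. All 3 day 6 arrays were above every other array, and both neural stem cell arrays were below every other array. Parp12 fell in neural stem cells by 2.15 on the log2 scale (SE 0.16, adjusted p = 6.79e-07), and its difference of 0.38 in day 6 cells was not called.

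Trim25, the ubiquitin ligase that activates the RNA sensor RIG-I, had levels of 9.51 and 9.19 in astrocyte iPSCs, 9.28 and 9.16 in MEF iPSCs, 7.97, 7.97 and 7.95 in day 6 cells, 7.44 and 6.39 in neural stem cells and 7.54, 7.53 and 7.15 in astrocytes. The 4 iPSC arrays were the highest, day 6 cells lay next, and neural stem cells and astrocytes overlapped. Trim25 was the sole gene of the 38 called higher in any of the 3 comparisons with astrocytes, 3.85-fold higher in astrocyte iPSCs (1.94, SE 0.24, adjusted p = 2.25e-05). Its difference of 0.56 in day 6 cells (SE 0.21, adjusted p = 0.0467) stayed under the size limit.

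Both measured GTPases induced by interferon gamma fell in all 3 comparisons with astrocytes. Irgm1, which acts on membranes of intracellular pathogens and in autophagy, stood at 7.32 and 7.03 in astrocyte iPSCs, 7.49 and 7.27 in MEF iPSCs, 5.89, 5.85 and 5.67 in day 6 cells, 6.90 and 5.84 in neural stem cells and 9.07, 8.46 and 8.41 in astrocytes. Astrocytes were highest, iPSCs were intermediate and day 6 cells were lowest apart from neural stem cell replicate 2, which fell within the day 6 range. The differences were -2.84 (SE 0.24) in day 6 cells, -2.28 (SE 0.27) in neural stem cells and -1.48 (SE 0.27) in astrocyte iPSCs. Gbp3, a guanylate-binding protein, differed by -2.53, -1.48 and -2.26 in the same order. In neural stem cells its difference was -0.82 and not called without neural stem cell replicate 2.

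Of the 4 genes for peptide transport, loading and the class I light chain, 3 fell in day 6 cells, 4 in neural stem cells and 2 in astrocyte iPSCs. B2m, the light chain shared by all class I molecules, had levels of 9.33 and 9.88 in astrocyte iPSCs, 9.53 and 9.54 in MEF iPSCs, 10.15, 9.84 and 10.00 in day 6 cells, 10.41 and 9.18 in neural stem cells and 12.10, 11.78 and 11.85 in astrocytes. No array outside astrocytes came within 1 log2 unit of the lowest astrocyte array. B2m was 3.77-fold lower in day 6 cells (-1.92, SE 0.25, adjusted p = 4.74e-05), 4.32-fold lower in neural stem cells (-2.11, SE 0.28, adjusted p = 6.63e-05) and 4.94-fold lower in astrocyte iPSCs (-2.30, SE 0.28, adjusted p = 2.4e-05) than in astrocytes. Tapbp, which encodes tapasin, the bridge between the peptide transporter and class I molecules, differed by -1.48, -2.24 and -1.22 in these comparisons. Tap1 and Tap2 form the transporter that carries peptides into the endoplasmic reticulum. Both were called lower in neural stem cells (-1.11 and -1.13), and in day 6 cells Tap2 was called at -1.02 while Tap1, at -0.79, was not.

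The 3 inducible proteasome subunits replace constitutive subunits and change the peptides produced. All 3 were lower in each comparison with astrocytes, without overlap of the arrays, but by different amounts. Lower arrays without overlap were seen in 27.3% of all genes in day 6 cells, 32.3% in neural stem cells and 31.9% in astrocyte iPSCs. Psmb8 had levels of 6.33 and 6.51 in astrocyte iPSCs, 6.54 and 6.66 in MEF iPSCs, 5.86, 6.13 and 6.03 in day 6 cells, 5.89 and 6.13 in neural stem cells and 7.57, 7.61 and 7.17 in astrocytes. It fell in all 3 comparisons, by 1.44 in day 6 cells, by 1.44 in neural stem cells and by 1.03 in astrocyte iPSCs on the log2 scale. Psmb10 was called lower in neural stem cells alone (-1.23, with -0.50 in day 6 cells and -0.47 in astrocyte iPSCs). Psmb9 was called in no comparison (-0.41 in day 6 cells, -0.80 in neural stem cells and -0.23 in astrocyte iPSCs). Their differences that were not called stayed under the size limit, with adjusted p of at most 0.028 by limma. Of 14 constitutive proteasome subunits, 0 were called lower in any of the 3 comparisons, where 8.1% to 11.4% of all genes were. Psma1 and Psma7 rose in day 6 cells, by 1.07 and 1.02, and also in astrocyte iPSCs, together with Psmb3.

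The Tap2 call in day 6 cells and the Psmb8 and Dhx58 calls in astrocyte iPSCs lay near the size limit. The difference of Tap2 was -0.99 after cyclic loess and -0.92 after centring each array on its median. It was -0.98 without astrocyte replicate 2, -0.93 without astrocyte replicate 3, -0.97 without day 6 replicate 1 and -0.99 without day 6 replicate 3. Psmb8 in astrocyte iPSCs was -0.94 after median centring, -0.97 without astrocyte replicate 1, -0.95 without astrocyte replicate 2 and -0.93 without astrocyte iPSC replicate 1. Dhx58 in astrocyte iPSCs was -0.94 after median centring, -0.90 without astrocyte replicate 1 and -0.98 without astrocyte replicate 2. In day 6 cells, Dhx58 was called at -1.09 with 16 units subtracted and at -1.02 without astrocyte replicate 3.

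Other genes of the pathway were examined in the same arrays, 98 of them on single-gene probe sets. Against astrocytes, 19 of the 98 (19.4%, against 10.1% of all genes) were called lower in day 6 cells, 21 (21.4%, against 8.1%) in neural stem cells and 23 (23.5%, against 11.4%) in astrocyte iPSCs. Called higher were 4 in day 6 cells (4.08%, against 6.75% of all genes), 1 in neural stem cells (1.02%, against 6.49%) and 9 in astrocyte iPSCs (9.18%, against 9.44%, near the share over all genes). The medians were -0.12, -0.31 and -0.13. Most of the 98 were therefore not called in any 1 of these comparisons.

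Among the 8 further receptors and kinases, Jak2, Ifngr2 and Jak1 fell in day 6 cells, at -1.57, -1.20 and -1.16. In astrocyte iPSCs 6 of the 8 fell, with Jak2 at -2.48 and Ifngr1, the binding chain of the interferon gamma receptor, at -1.86. Irf2, a factor that competes with Irf1 for DNA, differed by -1.0 in day 6 cells, -1.03 in neural stem cells and -2.63 in astrocyte iPSCs. The 7 measured interferon genes themselves gave 0 calls in all 6 comparisons, with differences from -0.22 to 0.12 in day 6 cells and neural stem cells against astrocytes, and 6 of the 7 lay below the array median on every array of every group. Tlr3, the endosomal sensor of double-stranded RNA, stood at 5.81 and 5.97 in astrocyte iPSCs, 5.83, 6.01 and 6.10 in day 6 cells, 6.40 and 6.15 in neural stem cells and 9.48, 9.02 and 9.27 in astrocytes. Its differences from astrocytes were -3.28 in day 6 cells, -2.98 in neural stem cells and -3.37 in astrocyte iPSCs, all called.

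Of 32 other interferon-induced genes, 10 fell and 1 rose in day 6 cells, where 10.1% of all genes were called lower and 6.75% higher. Lgals3bp, a secreted glycoprotein, and Ifi27, a mitochondrial protein, had the largest falls, at -4.09 and -4.04. Gbp7 (-2.96) and Trim30a (-2.54) came next. Ifitm1, which encodes a transmembrane protein that blocks virus entry and is also known as a germ cell and stem cell marker, was the one that rose. Its levels were 9.92 and 10.31 in astrocyte iPSCs, 9.36 and 9.40 in MEF iPSCs, 10.08, 9.51 and 10.22 in day 6 cells, 7.23 and 6.61 in neural stem cells and 7.34, 7.25 and 7.51 in astrocytes. The day 6 and iPSC arrays were all at 9.36 or above, and the neural stem cell and astrocyte arrays all at 7.51 or below. Ifitm1 was higher by 2.57 (SE 0.20, adjusted p = 4.44e-07) in day 6 cells and by 2.75 (SE 0.22, adjusted p = 5.98e-07) in astrocyte iPSCs than in astrocytes. In astrocyte iPSCs against astrocytes, 11 of the 32 fell (11.4% of all genes) and 4 rose (9.44%): Ifitm1, Pml, Mov10 and Phf11d. In neural stem cells 12 fell (8.1% of all genes) and 0 rose (6.49%).

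For class I presentation beyond the members, 2 of 10 genes were called lower in day 6 cells, where 10.1% of all genes were. They were Erap1, the peptidase that trims peptides to length (-1.55), and H2-Q4, a class I heavy chain (-1.29). The heavy chains H2-K1 and H2-D1 were not analysed here. Of 6 measured class II genes, 0 were called in any of these comparisons with astrocytes, and their differences ran from -0.15 to 0.36. Of all genes, 14.6% to 20.8% were called in either direction, so 0 of 6 is near that share.

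Markers of other cells were read beside these differences. The 16 measured microglia and macrophage markers summed to 1536 to 1698 intensity units in astrocyte iPSCs, 1331 to 1395 in day 6 cells, 1001 to 1021 in neural stem cells and 1537 to 2196 in astrocytes. The median difference of these 16 from astrocytes was -0.45 in day 6 cells, -0.54 in neural stem cells and -0.35 in astrocyte iPSCs. In 8 of the 16 (50%, against 16.6% of all genes), namely C1qa, C1qb, C1qc, Csf1r, Ctss, Cx3cr1, Fcer1g and Lyz2, every astrocyte array was above all 9 other arrays, so these markers moved with the 38 genes. In astrocytes, 9 of the 16, with Aif1, Cx3cr1, Csf1r, Ptprc and P2ry12 among them, nevertheless lay below the array median on every array. Lyz2 and Ctss were called lower in day 6 cells (-2.54 and -1.23). Laptm5 was called higher there (1.54) and in astrocyte iPSCs (1.92), and it raises the sums of those 2 groups. Astrocyte replicate 1 had the highest microglia sum and also the highest astrocyte level in 26 of the 38 genes (68.4%, against 34.6% of all genes). Without it, 22 genes were called lower in day 6 cells, 28 in neural stem cells and 19 in astrocyte iPSCs. Fibroblast and feeder markers (11 measured) summed to 4135 and 7548 in astrocyte iPSCs, 1379 to 1457 in day 6 cells, 1727 to 2145 in neural stem cells and 10020 to 10625 in astrocytes. The astrocyte sum is mostly that of Ogn (12.12 to 12.37 on the 3 arrays) and Thy1 (11.70 to 11.87). Against astrocytes, 5 of the 11 were called higher in astrocyte iPSCs (Col3a1, Dcn, Lum, Pdgfra and Postn) and 2 lower (Ogn and Thy1), with a median of 0.89, and in day 6 cells 5 were called lower and 0 higher, with a median of -0.98. Of 9 lymphocyte and dendritic cell markers, 0 were called in any of the 3 comparisons, where 14.6% to 20.8% of all genes were called in either direction. Of 8 neuron markers, 5 were called higher (Dcx, Tubb3, Map2, Syt1 and Snap25) and 1 lower (Stmn2) in neural stem cells, with a median of 1.51. Of 10 endothelial and pericyte markers, Pdgfrb was called lower in all 3 comparisons. Tek was called higher in day 6 cells, and Pecam1 and Flt1 in astrocyte iPSCs. The part of these other cells in the differences of the 38 genes was not tested beyond these values.

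Day 6 cells were next compared with neural stem cells, the cell type that also expresses the Sox1 reporter. In day 6 cells, 3 of the 38 genes were called higher, where 2.94% of all genes were: Parp12, Dtx3l and Trim25. Gbp3 alone was called lower, where 5.94% of all genes were. The median difference was 0.16, against 0.07 over all genes. Parp12 was 5.79-fold higher in day 6 cells than in neural stem cells (2.53, SE 0.16, adjusted p = 3.21e-07). Dtx3l stood at 8.32, 8.53 and 8.46 in day 6 cells, against 7.24 and 6.92 in neural stem cells, a difference of 1.36 (SE 0.12, adjusted p = 3.94e-06). Its partner Parp9 differed by 0.74 (SE 0.16, adjusted p = 0.00348), under the size limit. Stat2 differed by -1.0 (SE 0.10) after rounding and was not called, as the unrounded size lay just under the limit.

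Among other pathway genes, 7 of the 98 were called higher (7.14%, against 2.94% of all genes) and 4 lower (4.08%, against 5.94%) in day 6 cells than in neural stem cells. The higher ones included Ifitm1 (3.01), Ifitm2 (2.59) and Ifitm3 (2.31), Pml (2.11), a nuclear body protein, and Ddx58 (1.79), which encodes RIG-I, the sensor that Trim25 activates. The lower ones included Jak2 (-2.03) and Gbp7 (-2.02).

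The 2 neural stem cell arrays disagreed on this set of genes. Replicate 1 was at least 1 log2 unit above replicate 2 in 7 of the 38 genes, as in 0.226% of all genes, and at least 1 unit below in 0 of the 38, as in 0.371% of all genes. The 7 genes were Rtp4 (1.72 higher in replicate 1), Gbp3 (1.32), B2m (1.23), Oasl2 (1.17), Irgm1 (1.06), Usp18 (1.06) and Trim25 (1.04). Rtp4 showed the widest gap, with 7.22 in replicate 1 and 5.50 in replicate 2, against 8.28 to 8.91 in astrocytes. Ifit1, Ifit2 and Ifit3 did not take part, with gaps of 0.14, -0.12 and 0.00.

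Of the 98 other pathway genes, Ifitm3 (1.83) and Lgals3bp (1.56) showed such a gap. No microglia, astrocyte, endothelial, fibroblast or lymphocyte marker did, which is near the 0.226% of all genes with such a gap. The median gap of the 16 microglia markers was -0.05. Neuron markers ran the other way: all 8 were lower in replicate 1, 3 of them by at least 1, with a median of -0.68 and sums of 5798 in replicate 1 and 8779 in replicate 2. Their part in the gap was not tested. No other group had a gap of 1 or more between replicates 1 and 2 in any of the 38 genes. That is near the shares over all genes in those groups, which ran from 0% to 0.176% in either direction.

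Results that rest on the neural stem cells were therefore read with and without each array. Without replicate 1, 31 genes were called lower in neural stem cells than in astrocytes, and without replicate 2, 25 were. For day 6 cells against neural stem cells, leaving out replicate 1 gave 5 genes higher, with Parp9 (1.04) and Tapbp (1.04) added, and 0 lower, as Gbp3 became -0.39 (adjusted p = 0.0815). Leaving out replicate 2 gave 2 higher and 4 lower: Gbp3, Rtp4 (-1.78), Irgm1 (-1.10) and Stat2 (-1.0). Trim25 was then 0.53 and not called. Between day 6 cells and neural stem cells, Parp12 and Dtx3l were called without either array. Between neural stem cells and astrocytes, the 4 calls lost without replicate 2 were Gbp3 (-0.82), Parp9 (-0.99), Tap1 (-0.94) and Dtx3l (-0.99).

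**Figure D4:**
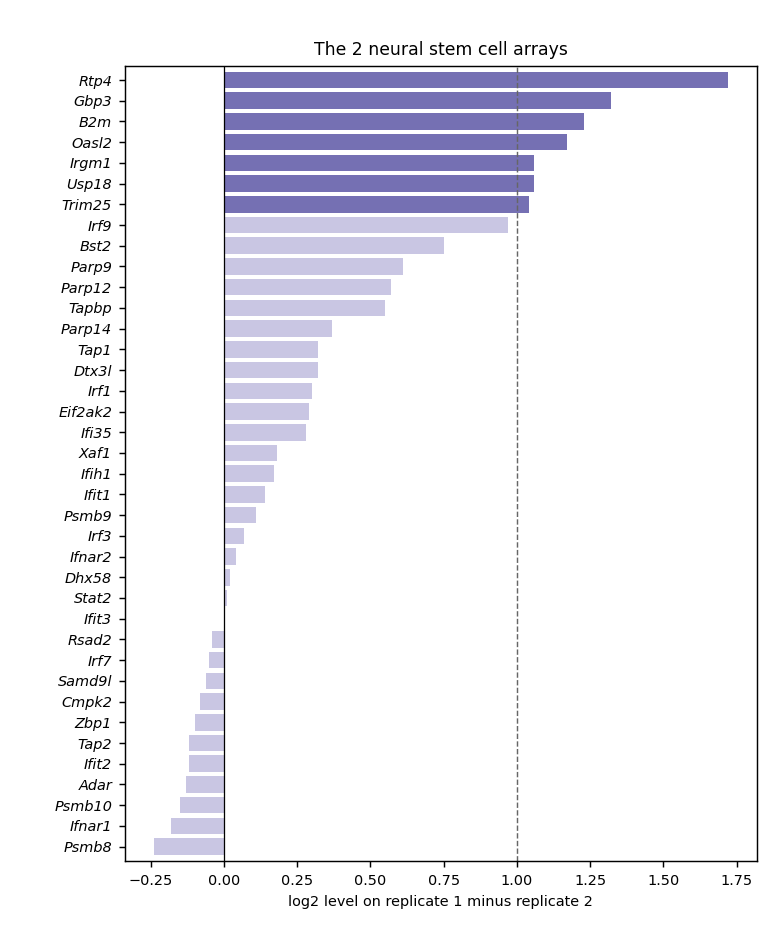
Log2 level on neural stem cell replicate 1 minus that on replicate 2 for each of the 38 genes, sorted; dark bars reach the dashed line at 1. The 7 dark bars run from Trim25 (1.04) to Rtp4 (1.72), and no bar reaches -1.

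Astrocyte iPSCs were then compared with day 6 cells, an earlier point of the same reprogramming. In astrocyte iPSCs, 5 of the 38 genes were called higher, where 3.29% of all genes were, and 0 were called lower, where 2.82% of all genes were. The median difference was 0.15, against -0.03 over all genes. The 5 genes were Trim25 (1.38, SE 0.24, adjusted p = 0.000928), Irgm1 (1.37, SE 0.27, adjusted p = 0.00242), Bst2 (1.28, SE 0.21, adjusted p = 0.000677), Irf1 (1.24, SE 0.11, adjusted p = 8.97e-06) and Oasl2 (1.21, SE 0.27, adjusted p = 0.00496). In each of the 5, both astrocyte iPSC arrays lay above all 3 day 6 arrays, which adds little for genes called on the same arrays. This separation was seen in 16 of the 38 genes (42.1%, against 25.3% of all genes), and the reverse in 8 (21.1%, against 28%).

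Irf1, a factor induced strongly by interferon gamma, stood at 8.14 and 8.28 in astrocyte iPSCs, 7.76 and 7.61 in MEF iPSCs, 7.10, 6.89 and 6.90 in day 6 cells, 6.74 and 6.45 in neural stem cells and 7.65, 7.58 and 7.36 in astrocytes. Astrocyte iPSCs were above every other group. Irf1 has 2 single-gene probe sets, and the mean of both gave a difference of 0.63 from day 6 cells (adjusted p = 5.36e-05), under the size limit. Oasl2 lost its call without astrocyte iPSC replicate 1, at 1.03 with an adjusted p = 0.0606. Ifit1, Ifit2 and Ifit3 stayed at the day 6 level, with differences of 0.22, -0.02 and -0.02 (SE 0.11 to 0.16).

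Among the genes without overlap of the arrays, Stat2 (0.89) and Parp14 (0.66) were above day 6 cells, and Parp12 (-0.96) and Ifnar2 (-0.96) below, each under the size limit. Of the 98 other pathway genes, Phf11d (2.38), Lgals3bp (1.96), Mov10 (1.15) and Ube2l6 (1.15) rose, and Irf2 (-1.62) and Ifngr1 (-1.16) fell, which makes 4.08% higher and 2.04% lower, close to the 3.29% and 2.82% of all genes. Ube2l6 is the conjugating enzyme for ISG15, and Mov10 is an RNA helicase. The iPSCs grew on feeders, and 8 of the 11 measured fibroblast and feeder markers were called higher in astrocyte iPSCs than in day 6 cells, with a median of 1.71. In astrocyte iPSC replicate 2, whose feeder sum of 7548 was above the 4135 of replicate 1, Oasl2, Irgm1 and Trim25 were lower and Irf1 and Bst2 were higher than in replicate 1. The part of feeder RNA in the 5 calls was not tested beyond these values.

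**Figure D5:**
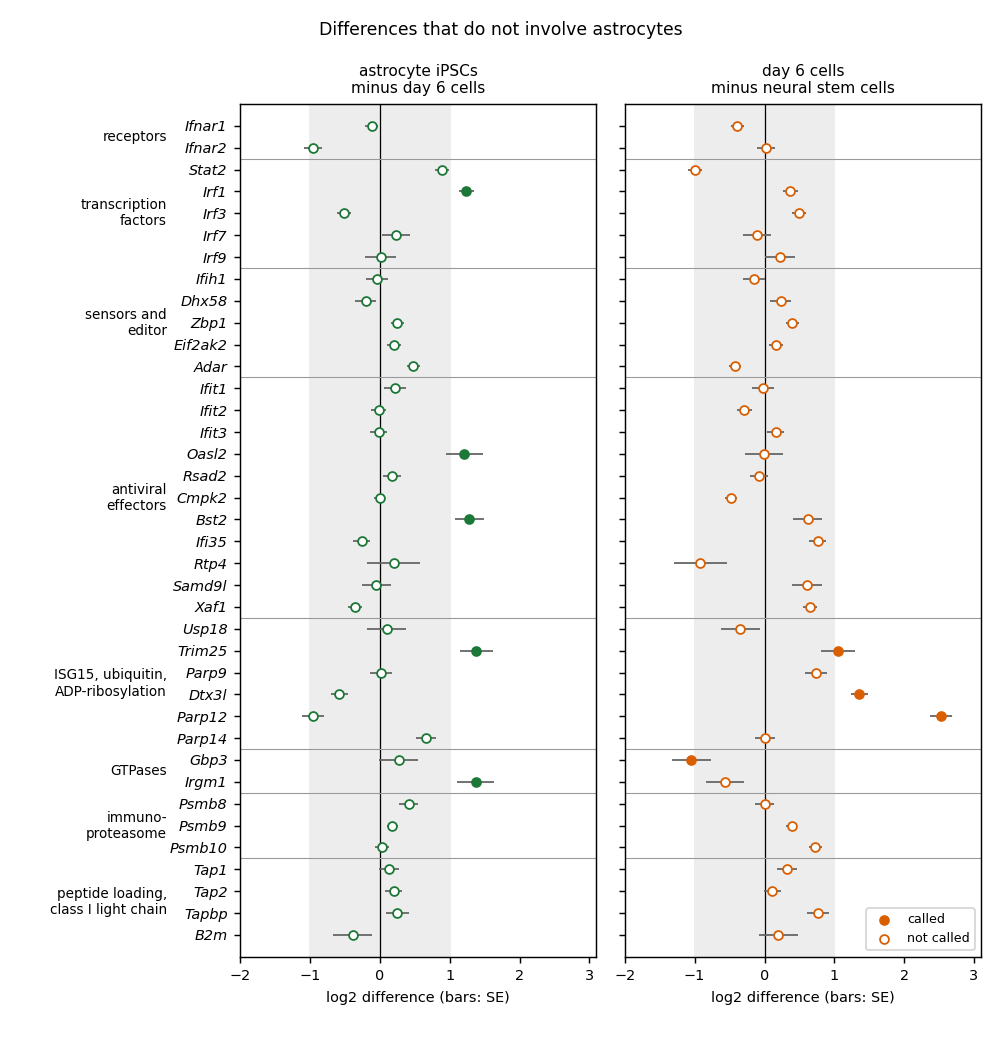
Log2 difference of each gene (horizontal axis) in astrocyte iPSCs minus day 6 cells and in day 6 cells minus neural stem cells, by role; bars are limma standard errors, filled points are called and the grey band marks differences under 1. In the left panel 5 points lie right of the band, and in the right panel Parp12 lies furthest right, at 2.53.

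Astrocyte iPSCs were last compared with MEF iPSCs. Of the 38, 0 were called higher in astrocyte iPSCs, where 0.461% of all genes were, and 0 lower, where 0.281% of all genes were, so that the absence of calls is near the share over all genes. At an unadjusted p under 0.05 by limma, 3 of the 38 differed (7.89%), against 16.6% of all genes. The differences ran from -0.42 to 0.52, with a median of -0.01. Irf1 (0.52, adjusted p = 0.0344) and Ifnar1 (0.42, adjusted p = 0.0369) were above the MEF line and Psmb10 (-0.42, adjusted p = 0.0435) was below it, all under the size limit. With SE of 0.09 to 0.41, smaller differences than these could not be resolved for every gene, and the MEF iPSCs stand for 1 line.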

How the data were processed

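Affymetrix Mouse Gene 1.0 ST arrays measured RNA from 12 samples in 5 groups. The authors deposited 1 linear intensity per probe set and array. The submitters' processing notes name robust multi-array averaging, RMA, without a version. The values ran from 20.2 to 15436, with array medians of 97.9 to 104.9, and a constant may have been added before deposit, which would shrink differences of dim genes.

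Log2 was taken first. Of 28853 probe sets, 21789 carry 1 gene symbol, 1621 several and 5443 none. A gene with more than 1 such probe set (999 of 19938 genes) was represented by the brightest on average. Symbols come from GEO's platform annotation, and gene and promoter data from RefSeq, GRCm38.p6. The arrays give no read depth, and their number limits the precision. The model, fitted with limma 3.58.1 under R 4.3.3, took all 12 arrays and gave each group its own mean, which leaves 7 residual degrees of freedom (10.9 with the prior). Calls needed a Benjamini-Hochberg adjusted p under 0.05 over all genes and a log2 difference of at least 1. The fit was tested on simulated data. The labels do not tie replicates to separate animals or cultures, so p-values cover only the spread seen among these arrays, and part of it may be technical.

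The members and all gene lists were chosen with earlier results of these data known. All members are named, and of the other pathway lists up to 4 called genes a list and comparison, by size of difference, with a few further genes named as partners of members. Alternatives covered the probe set rule, a filter on dim genes, cyclic loess, median centring, the arrays in the fit, the variance model, both limits, 16 units subtracted before log2, the replicate number as a block, and each array left out. Deviations of same-numbered astrocyte and day 6 arrays correlated at 0.41, -0.008 and 0.224, so the numbers were not taken to pair the samples. Replicate 1 of the MEF iPSCs correlated with replicate 1 of astrocytes at 0.396 and of day 6 cells at 0.408. The remaining same-numbered pairs lay between -0.097 and 0.193. What the replicate 1 arrays of these groups share was not tested.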

Additional observations from a re-analysis of the deposited data

How the results depend on the processing

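No difference of a member that was called in either setting changed sign under any alternative, and the median of the members kept its sign in every comparison except that between the 2 iPSC groups. For day 6 cells minus astrocytes, 21 to 22 members were lower and 0 higher with 1 array left out (median -1.49 to -1.28), no fold limit gave 33 lower and 1 higher, and the median was -1.53 with 16 units subtracted. For neural stem cells minus astrocytes, leaving out 1 array gave 25 to 31 lower and 0 higher (median -1.65 to -1.28). For astrocyte iPSCs minus astrocytes it gave 19 to 22 lower and 1 higher (median -1.26 to -1.0), no fold limit gave 33 lower and 3 higher, and 16 subtracted gave a median of -1.32. For day 6 cells minus neural stem cells, leaving out 1 array gave 2 to 5 higher and 0 to 4 lower (median 0.07 to 0.27). No fold limit gave 14 higher and 5 lower, cyclic loess 2 lower, an adjusted p under 0.01 gave 0 lower, and 16 subtracted 3 lower. For astrocyte iPSCs minus day 6 cells, leaving out 1 array gave 4 to 5 higher and 0 to 1 lower (median 0.10 to 0.20), no fold limit 9 higher and 5 lower, and 16 subtracted 1 lower. For astrocyte iPSCs minus MEF iPSCs, no fold limit gave 2 higher and 1 lower, and leaving out 1 array gave 0 of either (median -0.04 to 0.04). Without a fold limit, many of all genes pass as well. Against astrocytes, 34 members passed in day 6 cells (48.9% of all genes) and 36 in astrocyte iPSCs (51%). In day 6 cells minus neural stem cells, 19 passed (38.4%). The 14 in astrocyte iPSCs minus day 6 cells (29.6%) and the 3 between the iPSC groups (5.77%) lay near the shares over all genes. With the replicate number as a block, which the arrays did not bear out as a pairing, 2 members were lower in day 6 cells than in neural stem cells and 2 were lower in astrocyte iPSCs than in day 6 cells (Ifnar2 and Parp12, each -1.02), and no other count of calls changed. The cause of these changes was not tested, except that the absent fold limit and the stricter p limit change counts by construction. Calls near the size limit were also lost in neural stem cells minus astrocytes: Cmpk2 (-0.96) and Dhx58 (-0.98) after cyclic loess, the same 2 (-0.99 each) after median centring, Dhx58 (-0.93) without astrocyte replicate 1, Tap1 (-0.98) without astrocyte replicate 2, and Gbp3 (-0.82), Parp9 (-0.99), Tap1 (-0.94) and Dtx3l (-0.99) without neural stem cell replicate 2. Centring each array on its median moved the median of all genes for day 6 cells minus astrocytes to 0.14 and left 0 members higher and 21 lower. A group of 2 with 1 array left out is assumed to vary like the other groups.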

Other observations

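Among 7 negative regulators of cytokine and interferon signalling, Socs3 and Trim28 moved in opposite directions. Socs3, an inhibitor induced by receptors of the LIF family, had levels of 7.78 and 7.94 in astrocyte iPSCs, 8.82 and 8.80 in MEF iPSCs, 8.76, 8.67 and 8.79 in day 6 cells, 6.97 and 6.69 in neural stem cells and 9.75, 9.86 and 10.65 in astrocytes. It was highest in astrocytes and lowest in neural stem cells, and it fell by 1.35 (SE 0.19, adjusted p = 7.42e-05) in day 6 cells, by 3.25 (SE 0.21, adjusted p = 1.96e-07) in neural stem cells and by 2.22 (SE 0.21, adjusted p = 2.6e-06) in astrocyte iPSCs on the log2 scale, each against astrocytes. Day 6 cells were 1.91 above neural stem cells (SE 0.21, adjusted p = 2.45e-05). The labels name LIF for the day 6 cells and iPSCs and do not name it for the astrocytes and neural stem cells. The part of LIF in the Socs3 levels was not tested.

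Trim28, a corepressor that silences retroelements, stood at 11.52 and 11.46 in astrocyte iPSCs, 11.35 and 11.40 in MEF iPSCs, 10.88, 10.95 and 10.88 in day 6 cells, 10.64 and 10.74 in neural stem cells and 9.53, 9.44 and 9.39 in astrocytes. Astrocytes were lowest without overlap, and Trim28 rose by 1.45 (SE 0.06, adjusted p = 3.43e-09) in day 6 cells, by 1.24 (SE 0.07, adjusted p = 5.08e-08) in neural stem cells and by 2.04 (SE 0.07, adjusted p = 5.91e-10) in astrocyte iPSCs. Ptpn6, a phosphatase that acts on Janus kinase signalling, rose in astrocyte iPSCs (1.14, SE 0.08, adjusted p = 2.27e-07), and Socs1 was called in none of these comparisons.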
